A study of Rattus norvegicus with 28 samples.

Results

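Transcripts of 7 metabotropic glutamate receptor genes, Grm2 to Grm8, were followed in the amygdala of rat pups. Every probe set whose gene symbol in the authors' saline table was one of these symbols was taken, which gave 11 of the 15866 probe sets measured on all arrays, for 7 of 4837 genes named by a single symbol. Grm6 and Grm8 had 3 probe sets each and the other 5 genes had 1. Probe sets of 1 gene share their RNA and are not replicates of one another. Total RNA of dissected amygdala was hybridised to 28 Affymetrix arrays, 1 sample per array, directly after a 45-min session in which a peppermint odor was presented 11 times for 30 s with a tail shock of 1 s at 0.5 mA. In paired pups the shock fell at the end of the odor, and in unpaired pups it came 2 min after it. There were 14 arrays of saline-treated pups aged 8 days, 7 of them paired. Corticosterone, a steroid hormone of the stress response, was given to pups of the same age in another 6 arrays, 3 of them paired. The 8 remaining arrays, 4 of them paired, came from pups aged 12 days that were left untreated. All pups received odor and shock, so no group shows the untrained amygdala. Saline treatment and age cannot be told apart between the 8-day and 12-day pups. Dose, strain, sex and the number of pups per sample are not given in the sources used here, so p-values measure the spread between these samples, which may be technical. Paired and unpaired pups were compared to find transcripts that differ with odor-shock learning, and the ages and treatments to describe the levels of the receptors in each condition.

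Metabotropic glutamate receptors are receptors for glutamate that act through G proteins and not through an ion channel of their own. Group I, represented here by Grm5, couples to Gq and phospholipase C and lies mostly on the postsynaptic side. Group II (Grm2 and Grm3) and group III (Grm4, Grm6, Grm7 and Grm8) couple to Gi and Go, lower cyclic AMP and in large part restrain transmitter release from nerve endings. In the adult rodent amygdala these receptors are studied for their part in synaptic plasticity and conditioned fear.

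The sequences just upstream of the transcription start of Grm5, Grm6, Grm7 and Grm8 are shown, the 4 of the 7 receptors with an entry in the RefSeq promoter table. They are the 250 bases before the annotated start in RefSeq, build GRCr8, read 5′ to 3′ on the strand of the gene, and capitals mark GC boxes (GGGCGG or its reverse complement). The windows are chr1:150733503-150733752 on the plus strand for Grm5, chr10:35668753-35669002 on the plus strand for Grm6, chr4:145286476-145286725 on the plus strand for Grm7 and chr4:57687507-57687756 on the minus strand for Grm8.
Grm5: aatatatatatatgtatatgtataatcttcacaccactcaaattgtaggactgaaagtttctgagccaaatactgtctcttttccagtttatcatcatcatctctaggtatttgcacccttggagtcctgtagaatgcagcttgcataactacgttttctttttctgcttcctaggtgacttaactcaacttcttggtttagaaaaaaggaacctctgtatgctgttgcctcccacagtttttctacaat
Grm6: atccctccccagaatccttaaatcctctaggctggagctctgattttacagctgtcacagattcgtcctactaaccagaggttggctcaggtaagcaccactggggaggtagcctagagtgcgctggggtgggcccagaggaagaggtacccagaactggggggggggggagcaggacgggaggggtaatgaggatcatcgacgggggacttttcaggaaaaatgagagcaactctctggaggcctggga
Grm7: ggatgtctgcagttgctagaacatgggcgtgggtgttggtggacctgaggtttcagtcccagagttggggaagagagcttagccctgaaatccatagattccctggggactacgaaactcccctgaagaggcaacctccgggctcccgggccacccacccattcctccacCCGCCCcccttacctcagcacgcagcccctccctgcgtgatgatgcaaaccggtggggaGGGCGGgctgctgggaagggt
Grm8: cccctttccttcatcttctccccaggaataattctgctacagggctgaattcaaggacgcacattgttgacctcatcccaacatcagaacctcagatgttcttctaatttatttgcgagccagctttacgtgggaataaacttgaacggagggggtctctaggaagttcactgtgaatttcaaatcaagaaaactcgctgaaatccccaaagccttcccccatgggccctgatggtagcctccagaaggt
The Grm7 window is 62.0% G and C and holds 2 GC boxes, 1 on each strand. The Grm5 window is 36.4% G and C, the Grm6 window 56.8% and the Grm8 window 47.2%, and none of these 3 holds a GC box. Over 33469 promoter windows of this length the median was 51.2% G and C, and 30.5% held a GC box. The cyclic AMP response element core TGACG, searched on both strands, was in none of the 4 windows and in 18.2% of all. TATAAA, searched on both strands, was in none of the 4 and in 12.9% of all. A match or its absence describes letters in these windows only.

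The values were log2 expression values of probe sets. Each condition had a scale of its own, with array medians of 6.05 to 6.19 in saline arrays, 5.06 to 5.09 in corticosterone arrays and 6.38 to 6.46 in 12-day arrays. Levels were therefore compared between conditions as percentile ranks within each array, from 0 for the lowest to 100 for the highest of the probe sets. Ranks need not remove a difference in processing, so age or treatment and any separate processing of a condition's arrays cannot be told apart. A percentile rank depends on how well a probe set binds its target, so ranks of different receptors are not set against each other as transcript levels. A larger array design carried replicates 3 and 4 of saline and 12-day pups, in both trainings, and a smaller one carried the remaining 20 arrays. Markers of the amygdala nuclei (4 of 9 measured) lay at a mean rank of 67.0 to 73.6 in every array, with Crh, a neuropeptide of the central nucleus, in the lowest 25% of probe sets on 6 arrays. Oligodendrocyte markers (6 of 6 measured) had a mean rank of 60.7 to 73.7 in saline arrays, 60.8 to 66.4 in corticosterone arrays and 91.8 to 95.4 in 12-day arrays. Markers of striatal projection neurons (7 of 8 measured) lay at 72.2 to 78.6 in saline replicates 3 and 4 and at 79.8 to 80.6 in 12-day replicates 3 and 4, against 53.3 to 69.5 in the remaining saline arrays and 57.0 to 64.6 in the remaining 12-day arrays. In bulk tissue, fewer cells of a type and less RNA per cell cannot be told apart.

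Grm5, the group I receptor whose blockade in the rodent amygdala is known to impair fear learning, gave a low signal. In saline pups its log2 values were 3.24, 1.92, 3.86, 3.35, 2.98, 2.99 and 2.93 in paired replicates 1 to 7 and 2.62, 2.53, 3.46, 3.50, 3.22, 2.97 and 2.86 in unpaired replicates 1 to 7. The second paired replicate was the lowest, at a percentile rank of 4.80, and the other 13 saline arrays ranked between 22.8 and 37.4. In 12-day pups it measured 2.57, 2.73, 3.67 and 3.55 in paired and 2.71, 2.68, 3.21 and 2.91 in unpaired pups. In both conditions the arrays of the larger design were the highest within each training group, and these are also the arrays with the highest striatal markers, whose part in this was not tested. In corticosterone pups Grm5 lay in a narrow range, 3.76, 3.45 and 3.72 in paired and 3.69, 3.59 and 3.62 in unpaired pups.

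Grm2, a group II receptor of glutamatergic nerve endings, was split into a low and a high level. On 22 of the 28 arrays its log2 value lay between 2.47 and 3.41, and on 6 arrays between 4.36 and 6.003, with none between. In saline pups the high values were those of replicate 1 (4.37 paired and 4.36 unpaired) and replicate 7 (4.69 paired and 5.05 unpaired), so the same numbers were high in both trainings. The other 10 saline arrays measured 2.85 to 2.95. In 12-day pups the high values were 6.003 in paired replicate 1 and 5.05 in unpaired replicate 2, which do not share a number. All 6 high values were on the smaller array design, and none was in corticosterone pups, which measured 3.10, 3.06 and 3.41 in paired and 3.16, 3.16 and 3.15 in unpaired pups. Because of this split, the group SD of Grm2 was 0.80 in paired saline pups and 1.67 in paired 12-day pups.

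**Figure D1:**
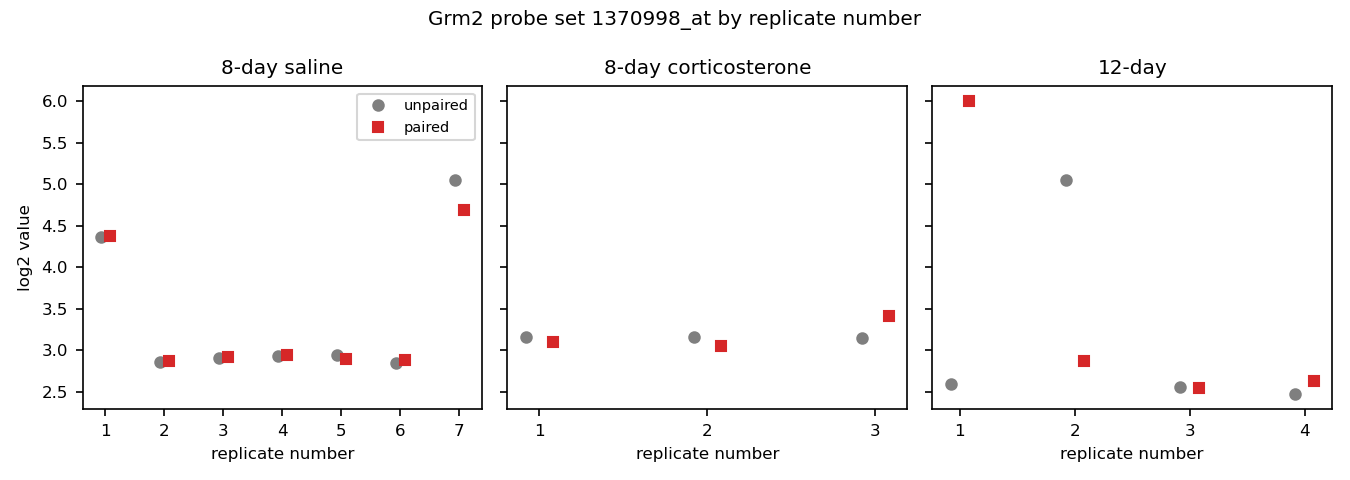
Log2 value of the Grm2 probe set (vertical axis) against replicate number, for paired (red squares) and unpaired (grey circles) pups in the 3 conditions; each point is 1 array. Saline replicates 1 and 7 stand at 4.36 to 5.05 in both trainings, 12-day paired replicate 1 at 6.003 and 12-day unpaired replicate 2 at 5.05, and the other 22 arrays lie at 3.41 or lower.

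Grm3, the group II receptor that astrocytes carry as well as neurons, had a percentile rank of 86.5 to 96.6 on the 28 arrays. In saline pups it measured 10.86, 10.19, 11.53, 11.55, 10.84, 10.82 and 10.98 in paired and 10.38, 10.38, 11.47, 11.69, 10.60, 10.67 and 10.60 in unpaired replicates 1 to 7. In 12-day pups it measured 10.33, 10.28, 11.50 and 11.22 in paired and 10.61, 10.83, 11.48 and 11.31 in unpaired pups. As with Grm5, replicates 3 and 4, on the larger design, were the highest of each group. The corticosterone arrays measured 9.76, 9.90 and 10.08 in paired and 9.92, 9.66 and 9.77 in unpaired pups.

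Among the group III receptors, Grm4, an autoreceptor of nerve endings, lay above the middle of every array, at percentile ranks of 53.4 to 68.4. Its log2 values were 7.59, 7.41, 7.16, 6.82, 6.53, 6.85 and 7.08 in paired and 7.73, 7.72, 7.27, 7.11, 7.09, 6.82 and 6.86 in unpaired saline pups. In 12-day pups they were 8.58, 8.53, 7.87 and 8.15 in paired and 8.53, 8.15, 7.89 and 8.03 in unpaired pups. On ranks, saline replicates 1 and 2 (59.7 to 62.8) were above saline replicates 5 to 7 (53.4 to 58.1) without overlap.

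Grm6, known as the receptor of ON bipolar cells in the retina, was in the lowest 25% of probe sets on all 28 arrays with each of its 3 probe sets. Their log2 values ran from 2.13 to 2.45 for 1371235_at, from 2.06 to 2.64 for 1371236_at and from 1.91 to 2.17 for 1387989_at. Only the highest of the second range, 2.64 in the first paired corticosterone replicate at a percentile rank of 21.3, stood off from its group, whose other 5 arrays ranked at 8.69 to 9.25. No detection calls were used here, and signals at this level carry no order between arrays that could be read as an amount of transcript.

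Grm7, the group III receptor of the presynaptic active zone, differed between sets of saline replicates. In saline pups it measured 8.40, 7.53, 7.50, 7.52, 5.96, 6.82 and 6.57 in paired and 7.93, 7.58, 7.37, 7.83, 6.10, 6.71 and 6.84 in unpaired replicates 1 to 7. Replicates 5 to 7 were below replicates 1 to 4 in both trainings without overlap. The mean percentile rank was 64.2 in saline replicates 1 and 2, 62.1 in replicates 3 and 4 and 53.1 in replicates 5 to 7. The first and last of these sets share the array design, so the design does not separate them. The 12-day arrays were close together, at 8.00, 7.99, 7.75 and 7.89 in paired and 7.78, 8.16, 7.72 and 7.79 in unpaired pups. Their mean ranks were 62.2 on the smaller and 60.9 on the larger design. Corticosterone arrays measured 6.04, 5.79 and 5.81 in paired and 5.76, 6.23 and 5.70 in unpaired pups.

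The 3 probe sets of Grm8, another presynaptic group III receptor, did not follow each other. Probe set 1371242_at was bright, with a rank of 65.3 to 78.7 over all arrays. It measured 8.92, 8.85, 8.68, 8.69, 8.33, 8.59 and 8.45 in paired saline pups, 8.66, 9.06, 8.63, 8.46, 9.05, 8.30 and 8.19 in unpaired saline pups, and 8.54 to 8.92 in the 8 arrays of 12-day pups. Probe set 1369391_at ranked at 25.9 to 46.8 and followed the replicate sets, with a mean rank of 45.3 in saline replicates 1 and 2, 38.6 in replicates 3 and 4 and 39.0 in replicates 5 to 7. At 12 days it had a mean rank of 45.6 in replicates 1 and 2 and 36.9 in replicates 3 and 4. Probe set 1371243_at ranked at 27.1 to 44.8 and differed most between conditions. It measured 3.63, 3.64, 3.52, 3.34, 4.17, 3.83 and 4.77 in paired and 3.72, 3.81, 3.58, 3.70, 4.48, 4.04 and 4.27 in unpaired saline pups. In 12-day pups it measured 2.97, 2.88, 2.94 and 2.93 in paired and 2.91, 3.48, 2.85 and 2.90 in unpaired pups, where the second unpaired replicate alone reached the saline range. The transcript regions that the 3 probe sets match were not analysed here.

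**Figure D2:**
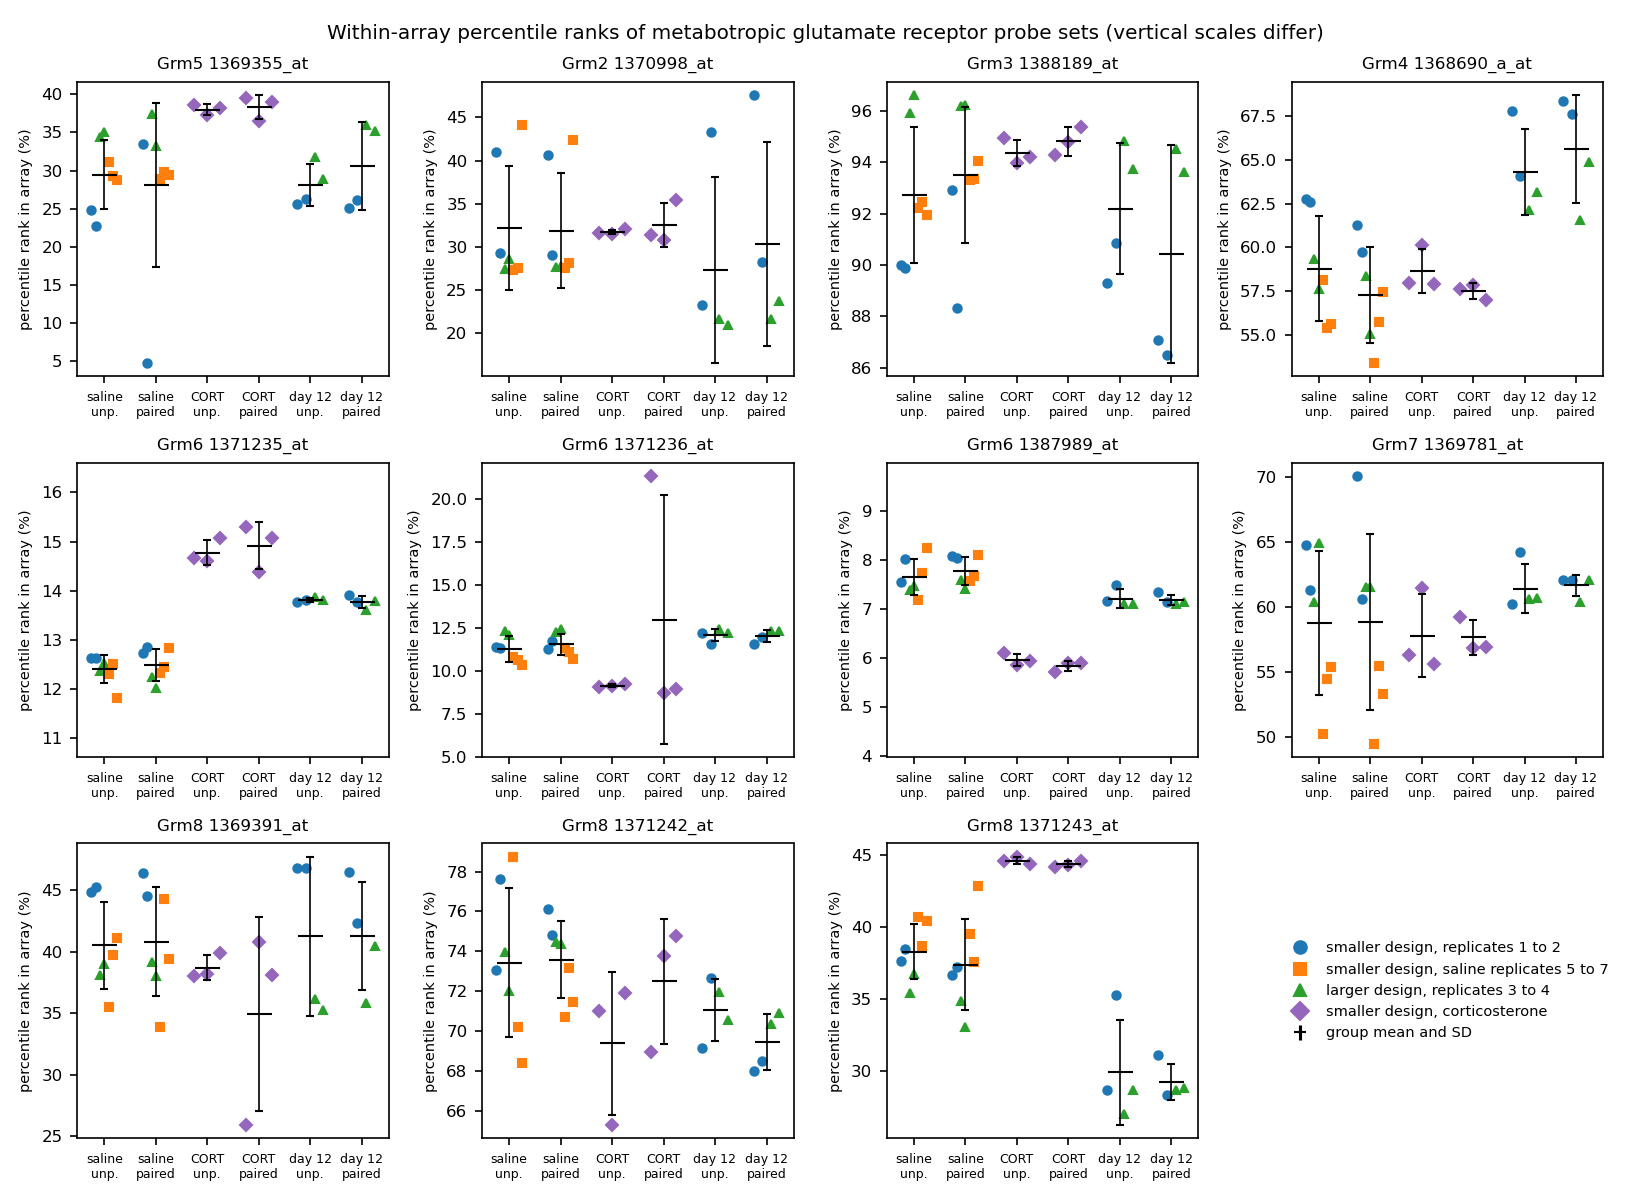
Percentile rank within the array (vertical axis, scale differing between panels) of each of the 11 probe sets in the 6 groups; each point is 1 array, its shape and colour give the array design and replicate set, and black bars are the group mean and SD. Grm4 stands higher and Grm8 1371243_at lower in 12-day pups, saline replicates 5 to 7 of Grm7 stand below the other saline arrays, and Grm5 is highest in corticosterone pups.

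No receptor was called as different between paired and unpaired pups. By rank products, with a call where the estimated share of false positives (pfp) was under 0.05, 0 of 11 probe sets were called in saline pups, against 0.176% of all probe sets (0.0693% higher and 0.107% lower in paired pups). In corticosterone pups 0 of 11 were called, against 0.0252% of all, and in 12-day pups 0 of 11, against 0.0567% of all. With so few calls among all probe sets, a count of 0 among 11 cannot be told from the background. The lowest pfp of any receptor probe set was 0.891 in saline, 0.781 in corticosterone and 0.683 in 12-day pups. In the authors' deposited table the lowest values were 0.898, 0.782 and 0.685. Limma called 0 of all probe sets in each condition after Benjamini-Hochberg adjustment, while an unadjusted p under 0.05 was reached by 72 in saline, 449 in corticosterone and 73 in 12-day pups.

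The differences between paired and unpaired pups were small beside the spread between arrays. On the log2 scale they ran from -0.17 (Grm4) to 0.14 (Grm3) in saline pups, with a median over the 11 probe sets of 0.02 and over all probe sets of 0.02. In corticosterone pups they ran from -0.25 (Grm8 1369391_at) to 0.26 (Grm8 1371242_at), 2 probe sets of 1 gene in opposite directions. In 12-day pups they ran from -0.23 (Grm3) to 0.34 (Grm2), the latter from 1 high array in each training. For Grm5 the difference was 0.02 (95% interval -0.51 to 0.54) in saline pups, 0.01 (-0.20 to 0.23) in corticosterone pups and 0.25 (-0.34 to 0.84) in 12-day pups. These intervals leave room for differences of the size of the spread between arrays in saline and 12-day pups. The log2 ranges of paired and unpaired arrays overlapped for 11 of 11 probe sets in saline and 12-day pups and for 10 of 11 in corticosterone pups. Over all probe sets 6.96% did not overlap in corticosterone pups, 0.485% in 12-day pups and 0% in saline pups. The exception was Grm4 in corticosterone pups, with 5.88, 5.89 and 5.82 after paired and 5.92, 6.11 and 5.92 after unpaired training. The difference was -0.12 (SE 0.08), with an exact two-sided permutation p of 0.10, the smallest that 3 against 3 arrays allow.

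Same-numbered arrays of saline and of 12-day pups, which share their array design and replicate set, deviated together. A pairing by number cannot be told apart from this sharing. With the replicate number as a block the intervals narrowed. For Grm2 in saline pups the SE of the difference of -0.04 went from 0.42 to 0.05. The smallest unadjusted p with this block was 0.00807, for Grm6 1387989_at in saline pups (a difference of 0.02, higher in 7 of 7 paired arrays), and its limma adjusted p was 0.30. That probe set lies at the lowest signals of the arrays. At 12 days Grm8 1371242_at was lower in the paired array in 4 of 4 numbers, by -0.13 (SE 0.09). The exact permutation p of 0.0857 took the arrays as unpaired, so it does not measure this pattern by number. With the replicate block the unadjusted limma p was 0.175.

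**Figure D3:**
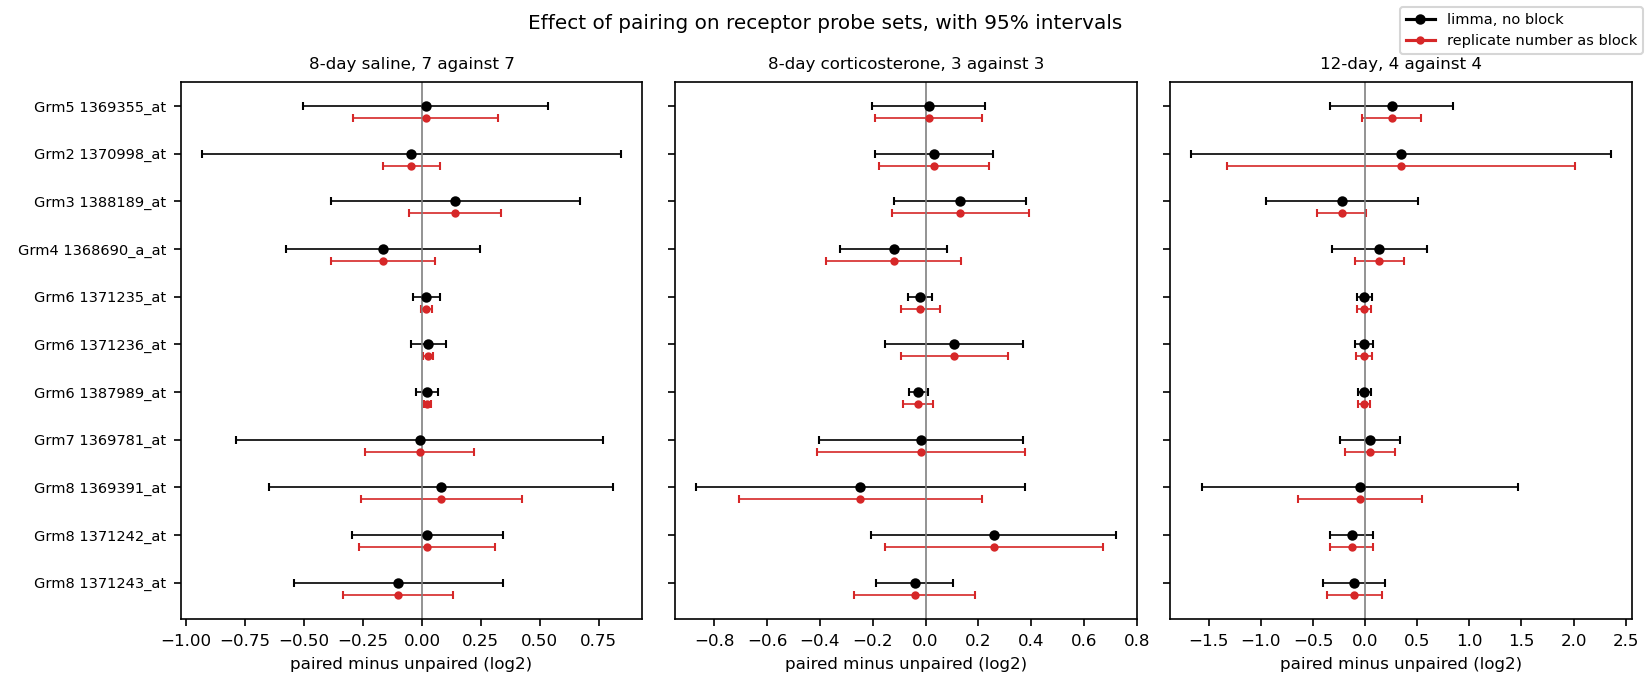
Difference of paired minus unpaired pups in log2 units (horizontal axis) for each receptor probe set in the 3 conditions, with 95% limma intervals without a block (black) and with the replicate number as a block (red). In corticosterone pups the numbers were not taken to pair the arrays, so the red intervals there are an alternative only. Differences lie between -0.25 and 0.34, and no receptor was called.

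The effect of pairing was also compared between conditions by an interaction term in limma. Of the 11 receptor probe sets, 0 differed in their pairing effect between corticosterone and saline pups, against 0.0063% of all probe sets, and 0 between 12-day and saline pups, against 0% of all (87 of 15866 at an unadjusted p under 0.05). The largest difference between 12-day and saline pups was 0.39 for Grm2 (SE 0.83). That between corticosterone and saline pups was -0.33 for Grm8 1369391_at (SE 0.73). For Grm5 the pairing effect differed by -0.0038 (95% interval -0.83 to 0.82) between corticosterone and saline pups and by 0.24 (-0.51 to 0.99) between 12-day and saline pups.

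Between 8-day saline pups and 12-day pups the largest called differences were a higher Grm4 rank and a lower Grm8 1371243_at rank at 12 days. The latter lay at low signals. Limma on percentile ranks, with array design and training as covariates, called 7 of the 11 receptor probe sets, 3 higher and 4 lower at 12 days, which is 63.6% against a background of 62.2% of all probe sets (33.5% higher and 28.7% lower). The number of receptors called is therefore near the background, and is not a result about them. The median difference of the receptors was -0.46 percentile points, against 0.16 over all probe sets.

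Grm4 ranked at 58.0 ± 2.88 in saline pups (SD, n = 14) and at 65.0 ± 2.69 in 12-day pups (n = 8). The fitted difference was 7.38 points (SE 1.22, limma adjusted p = 3.0e-05), and 14.7% of all probe sets differed by at least this size. It was 8.79 on the smaller design, with ranks of 53.4 to 62.8 in saline and 64.1 to 68.4 in 12-day pups, and 5.37 on the larger one, with 55.0 to 59.4 and 61.6 to 64.9. The 2 ages did not overlap within either design. Exact two-sided permutation tests gave p = 0.001998 on the smaller design (10 against 4 arrays) and p = 0.02857 on the larger one (4 against 4), each the smallest p that design allows. These tests take each array as a unit, while same-numbered arrays of the 2 trainings deviated together. With the means of same-numbered arrays as units the exact p was 0.0952 on the smaller design (5 against 2 numbers) and 0.333 on the larger one (2 against 2), again the smallest that each allows, so no exact test by number could reach 0.05. Limma on these means gave 7.38 (adjusted p = 0.00388). With saline replicates 5 to 7 against 12-day replicates 1 and 2 the difference was 11.1, and with saline replicates 1 and 2 it was 5.40.

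Grm8 1371243_at ranked at 37.8 ± 2.55 in saline pups (n = 14) and at 29.6 ± 2.54 in 12-day pups (n = 8), a fitted difference of -7.53 points (SE 0.88, limma adjusted p = 3.64e-07). It was -8.11 on the smaller and -6.69 on the larger design, and the ages did not overlap within either. On the means of same-numbered arrays limma gave an adjusted p of 1.02e-04, and the exact tests by number gave 0.0952 and 0.333 as for Grm4. The highest 12-day array, unpaired replicate 2 at a rank of 35.3, was nearest to the lowest saline array of its design, at 36.6. At 14.3%, a similar share of all probe sets differed by at least this size. At 12 days the log2 values of 1371243_at were 2.85 to 3.48, with the 25th percentile of those arrays at 2.57 to 2.72, so it lay at low signals there. The brighter probe set 1371242_at also fell, from 73.5 ± 2.86 to 70.2 ± 1.63, a fitted difference of -3.42 (SE 1.15, limma adjusted p = 0.0141). On the smaller design alone it was -3.87 and not called (limma adjusted p = 0.0939), and on the larger one -2.78. In unpaired pups alone it was -2.33 (limma adjusted p = 0.392) and against saline replicates 5 to 7 -2.55 (limma adjusted p = 0.286), neither called. The third, 1369391_at, had a difference of 1.74 (SE 1.62, limma adjusted p = 0.37), with 4.12 on the smaller and -1.67 on the larger design. Against saline replicates 5 to 7 alone, 1369391_at was called higher (6.63, limma adjusted p = 0.0234), so its call rested on the saline set.

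Among the remaining receptors Grm3 was lower at 12 days by -2.86 points (SE 0.71, limma adjusted p = 0.00167), with -3.43 on the smaller and -2.06 on the larger design, from 93.1 ± 2.57 to 91.3 ± 3.38. Against saline replicates 1 and 2 alone, its difference on the smaller design was -1.86 and lost the call (limma adjusted p = 0.267), as it did in unpaired pups alone (-1.54, limma adjusted p = 0.0836). The 3 Grm6 probe sets differed by 1.38, 0.47 and -0.46 points, all called, all in the lowest 25% of probe sets and in both directions. The first, 1371235_at, had the smallest limma adjusted p of the receptor probe sets (2.19e-08). Its ranks did not overlap between the ages over all arrays. The second was not called on the larger design alone (0.04) and the third not on the smaller one (-0.54). Neither the second nor the third was called on the means of same-numbered arrays (limma adjusted p = 0.144 and 0.0687). The second was also not called with the replicate block or with saline replicates 1 to 4 (0.22 in both, limma adjusted p = 0.183 and 0.126), in paired pups alone (0.31) or in unpaired pups alone (0.63). It also lost its call without 12-day paired replicate 2 (0.42), unpaired replicate 1 (0.35) or unpaired replicate 2 (0.46). Taking log2 values minus the array median in place of ranks turned the first 2 of these to -0.34 and -0.37.

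Grm2, Grm5 and Grm7 were not called in the fit over all arrays of the 2 ages. Grm2 differed by -1.29 points (SE 3.22, limma adjusted p = 0.756), with the 6 high arrays within its spread. It was -3.89 without 12-day paired replicate 1, -3.26 without unpaired replicate 2 and 0.53 without unpaired replicate 1, each not called. On the larger design, which holds none of the high arrays, its ranks were 27.5 to 28.6 in saline and 21.0 to 23.8 in 12-day pups, a difference of -5.86 (limma adjusted p = 3.88e-04). Its log2 values there, 2.91 to 2.94 and 2.47 to 2.63, lay near the 25th percentile of saline (2.63 to 2.80) and 12-day arrays (2.57 to 2.72). By number (2 against 2) the exact permutation p was 0.333, the smallest possible. Grm5 differed by -1.17 (95% interval -6.68 to 4.34). Without the second paired saline replicate its difference was -2.64, with a limma adjusted p of 0.0365. On the smaller design it was 4.29 against saline replicates 1 and 2 (limma adjusted p = 0.572) and -3.78 against saline replicates 5 to 7 (limma adjusted p = 2.11e-04). The set of replicates 1 and 2 holds the second paired saline replicate, at a rank of 4.80. Its other arrays ranked at 33.4, 24.9 and 22.8. Their mean was above the mean of 12-day replicates 1 and 2 (25.8), so the positive sign rested on the array at 4.80. As log2 minus the array median the age difference of Grm5 was -0.48 (limma adjusted p = 0.00594). Grm7 differed by 2.26 (95% interval -2.36 to 6.89). Against saline replicates 5 to 7 it was called higher (9.11, limma adjusted p = 8.17e-04). Against saline replicates 1 and 2 it was -2.05 and not called (limma adjusted p = 0.481).

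Within both designs at once, and in the same direction, the ranges of the 2 ages did not overlap for 3 of 11 receptor probe sets (Grm4, Grm6 1371235_at and Grm8 1371243_at), against 33.1% of all probe sets. Against the same background of 33.5% higher and 28.7% lower, oligodendrocyte markers were called higher in 12-day pups for 6 of 6 genes, astrocyte markers for 3 of 6 and neuronal markers for 2 of 5, none of them lower. Of the amygdala markers 2 were higher and 2 lower of 4, of those of thalamus and hypothalamus 2 higher and 1 lower of 5, and of those of choroid plexus 1 higher and 1 lower of 4. For midbrain dopamine neurons 1 of 3 was lower, and 0 of 7 striatal markers were called. The part of these cell types in the receptor differences was not tested.

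**Figure D4:**
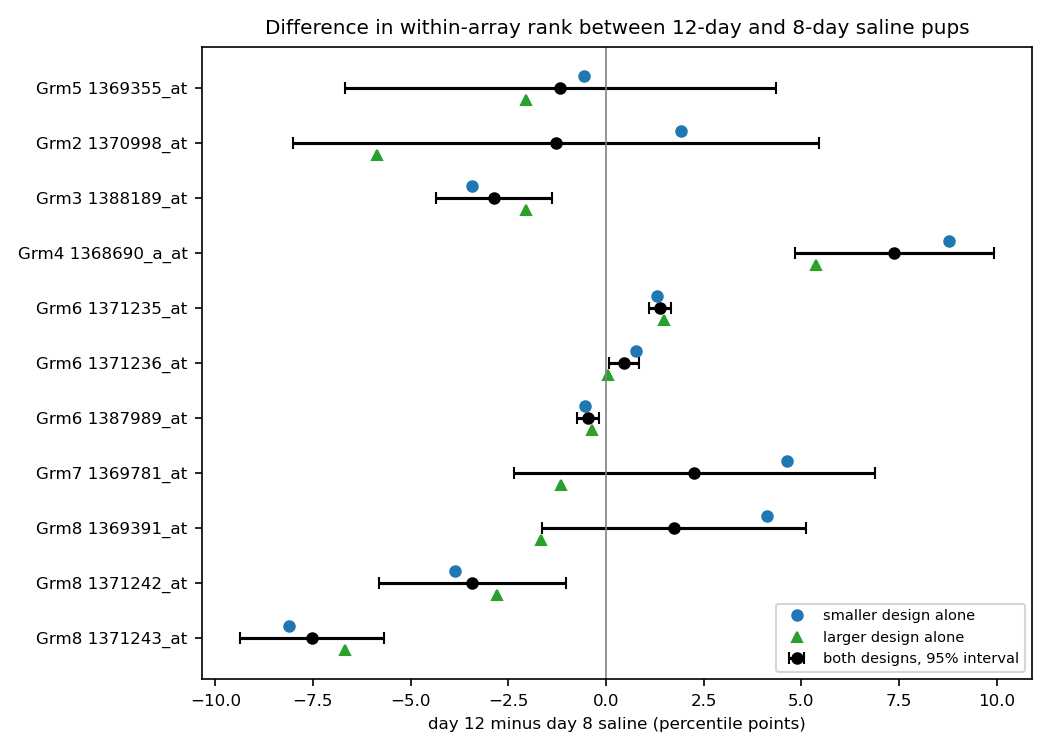
Difference in percentile rank of 12-day minus 8-day saline pups (horizontal axis, percentile points) for each receptor probe set; black points are the fit over both array designs with its 95% interval, blue circles the smaller design alone and green triangles the larger design alone. Grm4 (7.38) and Grm8 1371243_at (-7.53) have intervals away from 0 with both designs on the same side, while Grm2, Grm7 and Grm8 1369391_at have the designs on opposite sides.

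Corticosterone pups were compared with the 10 saline arrays of the same array design. Treatment and any separate processing of the arrays cannot be told apart here. Grm5 ranked higher in corticosterone pups, at 38.2 ± 1.11 (n = 6) against 26.3 ± 8.13 (n = 10), a difference of 11.8 points (SE 3.36, limma adjusted p = 0.00726). All 6 corticosterone arrays, at 36.5 to 39.5, were above all 10 saline arrays, at 4.80 to 33.4. An exact two-sided permutation test gave p = 0.0002498, the smallest that these numbers of arrays allow. With the means of same-numbered arrays as units (5 against 3 numbers) the exact p was 0.0357, again the smallest possible, and limma's adjusted p was 0.0403. A difference of at least this size was found in 6.33% of all probe sets. Without the second paired saline replicate, the lowest array, it was 9.34. It was 16.7 against saline replicates 1 and 2 and 8.60 against replicates 5 to 7. The rank of Grm5 in saline replicates 3 and 4, on the larger design, was 33.2 to 37.4, which reaches into the corticosterone range.

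Limma called 5 of the 11 receptor probe sets in this comparison, 4 higher and 1 lower in corticosterone pups, or 45.5% against a background of 61.2% of all probe sets. Of the receptor probe sets, 4 had ranges that did not overlap, against 37.5% of all. Besides Grm5, Grm8 1371243_at was higher, at 44.5 ± 0.25 against 39.0 ± 1.91, a difference of 5.49 (SE 0.80, limma adjusted p = 3.02e-05). Grm3 was higher by 2.74 (SE 0.75, limma adjusted p = 0.00582), at 94.6 ± 0.54 against 91.8 ± 1.84, although its log2 values were the lowest of the 3 conditions on their own scale. Of all probe sets, 25.4% differed by at least the size of Grm8 1371243_at and 49.4% by at least that of Grm3. Grm6 1371235_at was higher by 2.34 and Grm6 1387989_at lower by -1.91, both within the lowest 25% of probe sets. The second turned to 1.14 when log2 values minus the array median were used.

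Grm4 and Grm7 had no settled direction against saline. Grm7 differed by 0.22 points (SE 2.80) against all 10 arrays, by -6.48 against saline replicates 1 and 2 (limma adjusted p = 0.0185) and by 4.69 against saline replicates 5 to 7 (limma adjusted p = 0.0141). Grm4 differed by -0.14 (SE 1.35) against all, by -3.53 against replicates 1 and 2 (limma adjusted p = 4.13e-04) and by 2.12 against replicates 5 to 7 (limma adjusted p = 0.0326). Which saline set was used thus decided the sign of both. Grm8 1369391_at differed by -4.68 (SE 2.44, limma adjusted p = 0.111) and Grm8 1371242_at by -2.49 (SE 1.74, limma adjusted p = 0.23). Against saline replicates 1 and 2 the first was called lower (-8.45, limma adjusted p = 0.0202), and as log2 minus the array median the second was (-0.55, limma adjusted p = 0.00466). Grm2 differed by -1.58 (SE 3.05). The comparisons of corticosterone pups and of 12-day pups share the saline arrays of the smaller design.

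The partners through which these receptors signal were measured for 34 of 35 listed genes, 1 probe set per gene. Of these, 17 ranked higher and 7 lower at 12 days and 10 were not called, so 70.6% were called against the background of 62.2%. That background, 33.5% higher and 28.7% lower, also stands beside the counts by role at 12 days below. The median difference of the list was 2.07 points. Between paired and unpaired pups 0 of 34 were called in each of the 3 conditions, against the 0.176%, 0.0252% and 0.0567% of all probe sets given above. Between corticosterone and saline pups 8 were higher and 10 lower, or 52.9% against 61.2%.

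Among the 6 group I effectors, 3 were higher and 1 lower at 12 days. Itpr1, the receptor through which inositol trisphosphate releases calcium, went from a mean rank of 59.8 to 78.2, a fitted difference of 17.8 (SE 2.59, limma adjusted p = 6.48e-06). Gna11, a Gq family subunit, was higher by 2.44 and Plcb3, a phospholipase C at a mean rank below 8, by 0.48. Among 9 measured effectors of groups II and III, 4 were higher and 1 lower. Kcnj3, a subunit of the potassium channel opened by G proteins, was higher by 9.17 (SE 0.38) and the Gi subunit Gnai2 by 4.33, while Gnai3 was lower by -5.65. A second probe set of Kcnj3 was higher by 15.4 and the third was not called (0.37).

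Of 11 scaffolds and binding partners, 5 were higher and 4 lower at 12 days, against 33.5% higher and 28.7% lower of all probe sets. Shank3, a postsynaptic scaffold tied to group I receptors through Homer proteins, was higher by 4.44. Pick1, which binds the tail of Grm7, was lower by -7.15, and Grasp, a scaffold that binds group I receptors, by -3.45 at a mean rank of 5.01 in saline pups. Of the 5 regulators 3 were higher and 1 lower. Rgs4, which shortens G protein signals, was higher by 4.25, and Arrb2, an arrestin, lower by -6.03. Adrbk1, a receptor kinase, was called higher at 3.76, with 6.88 on the smaller design and -0.71 on the larger one. Second probe sets of Gnai3 (-10.1), Rgs4 (8.40) and Adrbk1 (5.52) were called in the same direction as the first.

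Of the 3 glutamate transporters, Slc1a2, the main astrocytic transporter of the forebrain, changed most, from a mean rank of 16.6 in saline to 51.8 in 12-day pups. The fitted difference was 36.1 (SE 3.02, limma adjusted p = 2.67e-09), with 36.4 on the smaller and 35.8 on the larger design, and its other probe set was higher by 10.5. Slc1a1, the neuronal transporter, was higher by 3.30. Slc1a3, an astrocytic transporter, differed by -0.09 (SE 0.41) with its brightest probe set. Its other 3 differed by 0.84 and -4.82, both called, and by 1.13, not called.

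**Figure D5:**
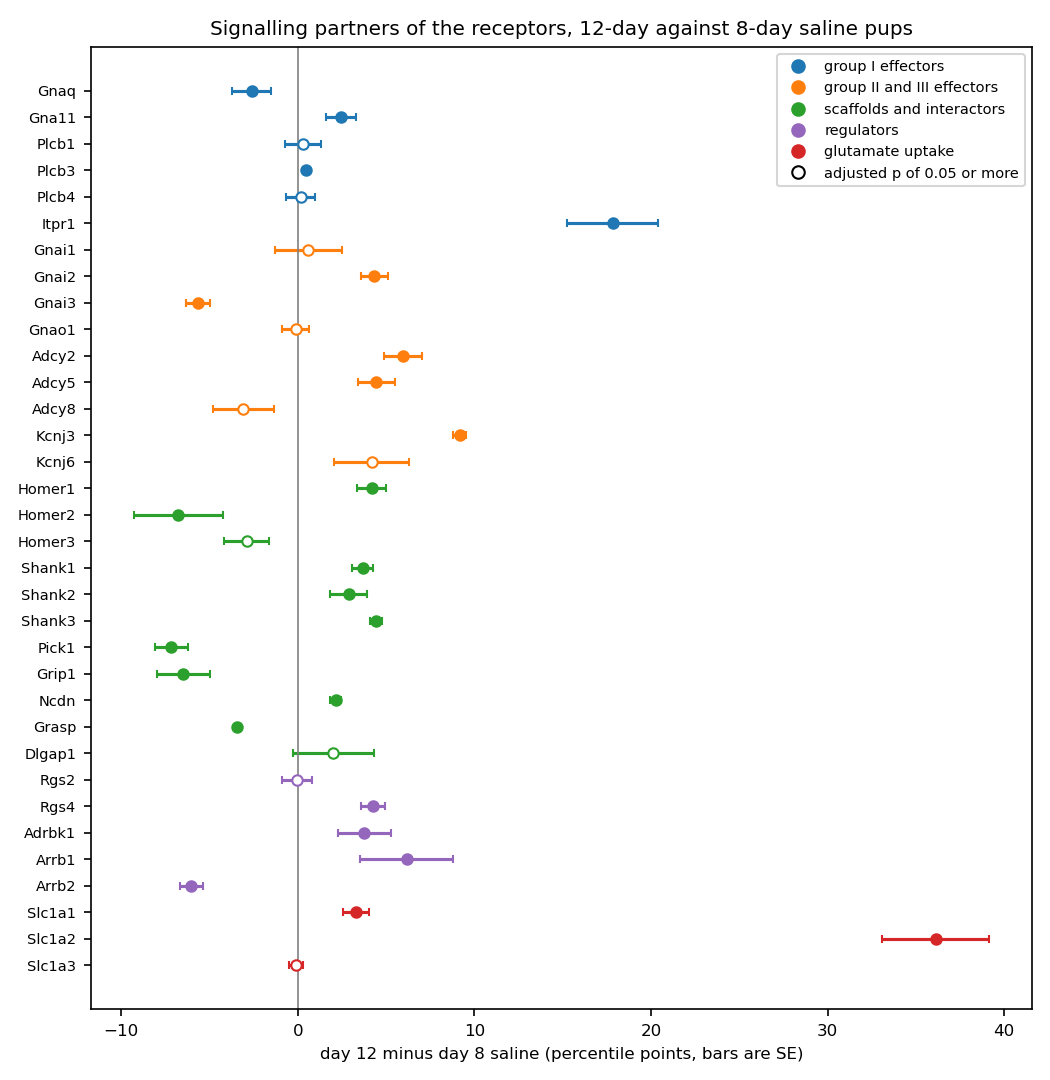
Difference in percentile rank of 12-day minus 8-day saline pups (horizontal axis, percentile points, bars are SE) for 34 signalling partners of the receptors, 1 probe set each, coloured by role; open circles were not called. Slc1a2 (36.1) and Itpr1 (17.8) lie farthest to the right, and Pick1 (-7.15) farthest to the left.

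For each receptor the genes with the most similar pattern were taken from probe sets with 1 symbol and a mean rank of at least 25, by Pearson's r of log2 values centred within replicate sets over the 28 arrays. The arrays share their scale and their replicate sets, so these values describe these arrays only. Grm5 was most like Cacna1a, a calcium channel subunit (r = 0.84), Slc30a1, a zinc transporter (0.83), and Cdk5r1, an activator of the kinase Cdk5 (0.82). Grm4 was most like Nefh, a neurofilament subunit (r = 0.77), Crot (0.72) and Tdrd7 (0.66). Grm8, with its brightest probe set, was most like Grin2a, an NMDA receptor subunit (r = 0.72), and the potassium channel genes Kcnj14 (0.71) and Kcnc2 (0.68). Grm7 was most like Ralgapa1 (r = 0.79), Aldh6a1 (0.76) and Dctn4 (0.76), and Grm3 most like Apc (0.76), Hsd17b7 (0.74) and Prkaa2 (0.74). For Grm2 the leading genes were Hmgb1 (r = 0.77) and Ncl (0.70). For Grm6 they were Mcpt3 (r = 0.96), Htr2b (0.95) and Cyp2c37 (0.95), with the Grm6 probe set itself at the lowest signals of the arrays.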

How the data were processed

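Total RNA of rat amygdala was measured on Affymetrix arrays, grouped and numbered by their titles. The authors deposited log2 expression values per array. RMA and GCRMA are named by the submitters' processing notes, with no background model or version. The authors' deposited comparison tables hold, per the file headers, a rank product statistic and a pfp (scores), a fold ratio and a p-value, and gave the gene symbols. All 15866 probe sets on both designs were tested. Training was tested in each condition by rank products, which the series' design text names, with 400 shuffles within arrays and calls at a pfp under 0.05. These calls equalled those of the authors' deposited tables in every condition (11 higher and 17 lower in saline, 4 higher in corticosterone, 9 higher in 12-day pups). Limma 3.58.1 in R 4.3.3 (lmFit and eBayes, Benjamini-Hochberg over all probe sets, 0.05) gave standard errors, the interaction terms, and the comparisons of percentile ranks. Exact permutation tests used scipy 1.17.1 and figures matplotlib 3.10.9, under Python 3.11.15 with pandas 2.3.3 and numpy 2.4.6, and the tests were tried on simulated data. The number of arrays limits the precision.

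Deviations from the group means of same-numbered paired and unpaired arrays correlated at 0.54 to 0.86 in saline and 0.60 to 0.73 in 12-day pups, so the replicate numbers were taken to pair them. An array's own number was its best match for 3 of 7 saline and 3 of 4 12-day pairs. In corticosterone pups, all on the smaller design, the correlation was -0.28 to 0.04, and the numbers were not taken to pair the arrays. No deposited arrays were identical.

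All receptor probe sets are named. Signalling partners are named where they were among the 3 smallest p-values of the age comparison in their role, with the probe set of the highest mean rank for each gene. The members and the gene lists were chosen with earlier results of these data known. Some results that these rules take are not reported here. Alternatives covered the replicate block, array design, replicate sets, scale, low signals, limma, means of same-numbered arrays (added after seeing the data) and each array left out in turn.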

Additional observations from a re-analysis of the deposited data

Results flagged for a closer look

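Of 44 groups of 4 to 10 samples examined for a value far from the others (Dixon's criterion at 95%), 4 were picked out, where chance gives about 1 in 20 groups. In 12-day pups, Grm2 measured 6.003 in paired replicate 1, against 2.87 for the next array of the group, and 5.05 in unpaired replicate 2, against 2.59. Grm7 measured 8.16 in unpaired replicate 2, against 7.79, and Grm8 1371243_at measured 3.48 there, against 2.91. Of the 4 values, 3 come from the same array, 12-day unpaired replicate 2. Without that array the age difference of Grm8 1371243_at was -8.20 percentile points and that of Grm7 1.54. The age difference of Grm2, -1.29 over all arrays, was -3.26 without it and -3.89 without 12-day paired replicate 1, neither called. Without either array no receptor was called for pairing.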

How the results depend on the processing

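Between paired and unpaired pups, 0 receptor probe sets were called under every alternative run, and leaving out each array in turn gave 0 to 0. The replicate block changed no receptor's call there. The number of all probe sets called moved. In saline pups it was 28, and 107 with a replicate block in the rank products (same-numbered arrays), 11 at a mean log2 of at least 5, 12 on the larger and 15 on the smaller design, and 0 by limma without a block, with the replicate block and with the design as a block (72, 2137 and 809 at an unadjusted p under 0.05). In corticosterone pups it was 4, and 0 with the filter and by limma with or without the replicate block. In 12-day pups it was 9, and 29 with the replicate block, 3 with the filter, 18 on the larger design and 0 by the 3 limma fits. Single arrays left out gave 12 to 34, 1 to 28 and 1 to 28. For the difference of the pairing effect between corticosterone and saline pups, 1 probe set was called, 0 with the replicate block, 0 with the filter and 0 to 4 with single arrays left out. For 12-day against saline pups leaving out arrays gave 0 to 0.

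Between ages, 7 of 11 receptor probe sets were called, with 9866 of all 15866. In unpaired pups only it was 3, with 7299 of all. At a mean rank of at least 25, 4 of 8 were called, with 7190 of 11903. Single arrays left out gave 6 to 8 (9371 to 10137 of all). Grm4 and Grm8 1371243_at kept their direction and call under all 34 alternatives. With log2 minus the array median, which moved the median of all probe sets by -0.26, called probe sets split into 3553 higher and 8343 lower, against 5315 and 4551 on ranks. Grm6 1371235_at then turned to -0.34 and 1371236_at to -0.37. For corticosterone, 5 of 11 were called, with 9712 of all 15866. Against saline replicates 1 and 2 it was 8, with 12061 of all. With a replicate block it was 9, with 11204 of all, although corticosterone and saline arrays share only numbers. Among these 9 were Grm8 1369391_at at -9.53 (limma adjusted p = 0.00881), Grm8 1371242_at at -5.67 (limma adjusted p = 0.0464) and Grm4 at -3.22 (limma adjusted p = 0.0145). At a mean rank of at least 25, 3 of 8 were called, with 6344 of 11904. Single arrays left out gave 5 to 6 (9055 to 10078 of all). With log2 minus the array median, which moved the median by 0.28, the split was 7626 higher and 4313 lower, against 4378 and 5334, and Grm6 1387989_at turned to 1.14. Reversals were also found for Grm4 (2.12 against saline replicates 5 to 7), Grm7 (-6.48 against saline replicates 1 and 2, -5.75 with the replicate block) and Grm6 1371236_at (-2.04 without the first paired corticosterone replicate, with -2.04 to 0.70 over single arrays left out). The cause was not tested. The alternatives that set single saline sets against 12-day replicates 1 and 2, and those on means of same-numbered arrays, were chosen after seeing the data. On these means 5 receptor probe sets were called in each comparison, with 8275 of all between ages and 7802 for corticosterone.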
